A study of Homo sapiens with 29 samples.

Results

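The cytosolic ribosomal protein genes were taken as the rows of the deposited expression table whose symbol is RPL or RPS with a number (and an optional A, X or L), together with RPLP0, RPLP1, RPLP2 and RPSA. The rule found 79 of 13492 genes, 47 of the large (60S) subunit and 32 of the small (40S) subunit, and all 79 were abundant enough to be tested. The rule used names only, with no measured value. Their levels fitted the label: 57 of the 79 had a mean above 1000 CPM (reads scaled to library size by the authors), and the median member stood at 1418 CPM, against 28.6 CPM for all tested genes.

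Each cytosolic ribosome holds a single copy of nearly every one of these proteins, so their mRNAs are made in bulk and in near balance, and dividing tumor cells give a large part of their mRNA to them. Most of these mRNAs begin with a 5′ terminal oligopyrimidine (TOP) tract, a C at the first base followed by a run of C and T, through which mTOR and LARP1 set how well they are translated. Ribosome number is further set by the nucleolar factors that make rRNA and assemble subunits, and in intestinal tumors the Wnt pathway is known to drive growth programmes that include both. PolyA RNA sequencing measures the abundance of these mRNAs and not their translation.

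The study sequenced polyA RNA from 29 xenograft tumors of COLO320DM, an established human colorectal adenocarcinoma cell line grown in mice, collected at 48 h. The agents are named in the series title as helicon peptides (helically constrained peptides) against β-catenin/TCF, the transcription factor complex through which Wnt signalling acts. Animals received vehicle (10 libraries), Helicon4neg at 30 mpk (8), Helicon4 at 30 mpk (6) or Helicon4 at 100 mpk (5). The labels do not describe Helicon4neg beyond its name, and there was no Helicon4neg group at 100 mpk. Treatment began once tumors had grown to a set average size, the mouse strain and age are not given in the labels, and separate replicate numbers are the only sign that libraries came from separate animals, so p-values measure the spread between these libraries.

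Depth was 26.8 to 61.6 M reads, and the least abundant member value rested on 112 reads. AXIN2, a feedback target of Wnt signalling, fell with Helicon4 at 100 mpk (log2 fold change -0.85 ± 0.095 SE, limma adjusted p = 3.07e-08) and at 30 mpk (-0.35 ± 0.089, adjusted p = 0.00804). Of 8 markers fixed for the cell line 7 were in the table and VIL1 was not. Means in vehicle were 5244 CPM for MYC, 3135 for CDX2, 483 for AXIN2, 175 for KRT8, 111 for KRT18, 27.9 for EPCAM and 11.5 for CDH17. At 100 mpk against vehicle 2 of the 7 fell and 0 rose, against 15.9% and 14.3% of all tested genes, and CDX2 had a mean of 2087 CPM at 100 mpk. Of 20 markers of host stroma 11 were in the table, and their summed level was 257 to 362 CPM in vehicle, 333 to 397 with Helicon4neg, 201 to 265 with Helicon4 at 30 mpk and 162 to 235 at 100 mpk, so that the 100 mpk and vehicle groups did not overlap. MMP2 made up much of this sum (a mean of 156 CPM in vehicle and 71.6 CPM at 100 mpk), and single host markers went both ways: at 100 mpk against vehicle 6 of 11 fell and 2 rose, at 30 mpk 4 fell and 2 rose, and the 2 that rose were COL1A1 (0.77 and 0.74) and PDGFRA (1.13 and 0.41, at most 2.81 CPM in any library). In bulk tumors fewer cells of a type and less RNA per cell cannot be told apart, and no mouse genome is named, so mouse reads may be counted under these highly conserved genes. Helicon4neg library 2 and vehicle library 6 stood apart from the rest in the measure of gene length described below, and several results are given with and without them. The titles carry 7 codes of unstated meaning, none of which holds both a vehicle and a Helicon4 library, so that code and treatment cannot be told apart in those comparisons. The same holds for Helicon4 at 100 mpk against Helicon4neg, whose groups share no code. At 30 mpk only Helicon4 library 1 shares a code with Helicon4neg libraries.

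The first bases at the annotated transcription start show the feature most members share and the rule did not use. RefSeq start windows (GRCh38.p14) were matched by symbol for 63 members, and a C at the start followed by at least 4 C or T was present in 46 of them (73.0%), against 5.14% of 27305 genes in the same table and 7.26% of 10077 tested genes. Where a symbol had several windows the one with the longest tract was kept, for members and other genes alike. Only the transcribed strand was read, since the tract is defined on the mRNA. Each window below runs from 10 bases before the start through the first 15 transcribed bases, with the tract in capitals where present. The first 4 are members with the tract, among them RPS3 and RPL36A, which were called in comparisons below.
RPS3 (chr11:75399508-75399532, + strand): cgagccacttCCTTTCCTTTCagcg
RPS27 (chr1:153990752-153990776, + strand): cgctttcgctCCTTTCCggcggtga
RPLP1 (chr15:69452808-69452832, + strand): ggcgcgagagCCCCTTTCCTCagct
RPL36A (chrX:101391001-101391025, + strand): ctcgcggtttCTTTCTTTCCgcgcc
The next 4 carry no such tract at the annotated start and are also among the members called below.
RPL17 (chr18:49492451-49492475, - strand): ttccctaagcagcctgaggtgagtg
RPL3 (chr22:39319609-39319633, - strand): gccgaccggcctctaccggcgggat
RPS15 (chr19:1438386-1438410, + strand): aggcgcggaccaaagcgatctcttc
RPS27L (chr15:63157463-63157487, - strand): gatgccgagcgcagatcgcttgcag
The 46 members with the tract and the 17 without it had like median log2 fold changes with Helicon4 at 100 mpk against vehicle, -0.25 and -0.22, and this is a description only.

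Levels per kb of the median-length coding transcript spanned from 1.92 for RPL3L to 6163 CPM per kb for RPL41, with a median of 2057. RPL41, the smallest protein of the ribosome, was followed on this scale by RPS2 (5189), RPL7A (5064), RPL39 (5060) and RPS27 (4333). RPS2 sits near the mRNA entry channel of the small subunit, and RPL39 lines the peptide exit tunnel. At the other end stood RPL3L (1.92), RPS10 (12.2), RPL17 (13.3), RPL36A (28.7) and RPS27L (53.4). RPL3L is the striated-muscle paralogue of RPL3 and RPS27L a paralogue of RPS27 that p53 is known to induce. The parent genes were far higher, with RPL3 at 2784 CPM per kb. RPL10 stood at 2090 CPM per kb. RPS10, RPL17 and RPL36A encode proteins that every ribosome carries, and each shares exons on its strand with an annotated readthrough gene (RPS10-NUDT3, RPL17-C18orf32 and RPL36A-HNRNPH2). How the authors' counting treated such reads is not given in the sources used here, so the levels of these 3 genes, and of the 6 other members that share an exon with a coding gene (among them RPL22, RPL26 and RPL36), are uncertain. The same holds for reads shared with processed pseudogenes, of which GENCODE lists a median of 8 per member.

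The members moved together from library to library. Each member's log2 level correlated with the mean of the others with a median r of 0.93, above 0.8 for 68 of 79, and RPL36A (0.074) and RPL17 (0.13) were lowest. The share of the column sum taken by the 79 genes was 11.03% to 17.5% in vehicle (median 12.1%, mean 13.3% ± 2.33, SD, n = 10), with libraries 4, 6 and 8 at the top. With Helicon4neg it was 10.8% to 20.4% (median 11.8%, mean 12.7% ± 3.17, n = 8), with library 2 alone above 13.02%. With Helicon4 at 30 mpk it was 10.9% to 13.2% (median 11.9%, mean 11.9% ± 0.894, n = 6). At 100 mpk the 5 libraries stood at 10.7%, 10.96%, 11.1%, 12.04% and 13.6% (mean 11.7% ± 1.20). All 4 groups overlapped, and the higher means of vehicle and Helicon4neg came from 4 libraries.

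The share followed a property of the libraries that does not depend on the members. For each library a length slope was computed over the other tested genes, as the change in log2(CPM + 1) relative to the gene's mean per doubling of the gene length given in the file; a negative slope means that short genes are over-represented. On the gene length in the file, which the slope uses, the members had a median of 2982 bases, against 4933 for all tested genes. The median coding transcript of the members is 693 bases long, against 2304 for all tested genes. Helicon4neg library 2 had a slope of -0.32 and vehicle library 6 a slope of -0.18, while Helicon4 libraries lay between -0.023 and 0.12. Over 29 libraries the share and the slope had r = -0.94 and rho = -0.87, and r = -0.85 without the 2 libraries farthest in slope. Within vehicle r was -0.87 (n = 10), within Helicon4neg -0.99 (n = 8, and -0.98 without library 2) and within Helicon4 at 30 mpk -0.91 (n = 6). These are descriptions, and both measures come from the same columns. All 79 members correlated negatively with the slope, 67 of them with r under -0.8, against 9.61% of 13294 other tested genes.

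**Figure D1:**
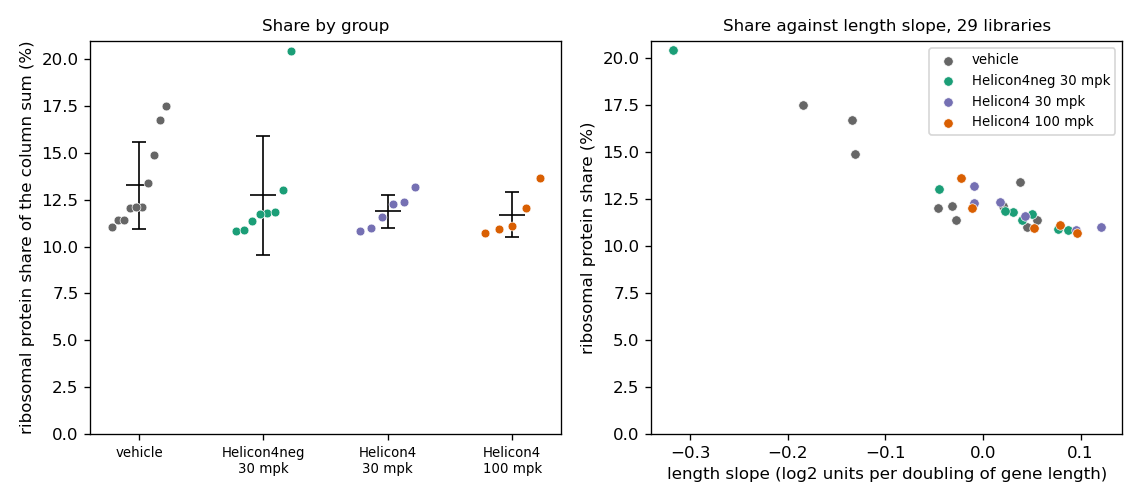
Left, share of the column sum taken by the 79 ribosomal protein genes (%) in each library by group, with bars for mean ± SD. Right, the same share against the length slope of each library; Helicon4neg library 2 lies at 20.4% and a slope of -0.32, and low shares go with high slopes in each group.

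The length slope itself did not differ between groups past the threshold. Its mean was -0.040 in vehicle, -0.0071 with Helicon4neg, 0.043 with Helicon4 at 30 mpk and 0.039 at 100 mpk. The smallest p of 6 comparisons was that of Helicon4 at 30 mpk against vehicle (p = 0.0507 by a two-sided exact permutation test, 0.249 after adjustment). The mean log2 share was lower than in vehicle by 0.17 at 100 mpk, by 0.14 at 30 mpk and by 0.070 with Helicon4neg, against a residual SD of 0.23 between libraries. With the slope as a covariate the differences from vehicle turned slightly positive, at 0.0098, 0.045 and 0.0044, with a residual SD of 0.082. Without the 2 libraries that stood apart, and with no covariate, they were -0.12, -0.098 and -0.12.

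The fold changes of the single genes were summarised by their median, without and with the slope in the fit. Against vehicle the median log2 fold change of the 79 genes was -0.23 at 100 mpk (77 of 79 below 0), -0.23 at 30 mpk (77 of 79) and -0.071 with Helicon4neg (61 of 79), while the median of all tested genes was within 0.0074 of 0 in every comparison. With the length slope as a covariate the 3 medians were -0.013, 0.029 and 0.030, with 44, 20 and 30 genes below 0. The median standard error of a member fell from 0.17 to 0.082 at 100 mpk. The remaining 3 comparisons also had medians closer to 0 with the covariate for Helicon4 at 30 mpk against Helicon4neg (-0.15 and -0.0024) and for 100 mpk against Helicon4neg (-0.19 and -0.061), but not for 100 against 30 mpk (-0.031 and -0.044). The medians against Helicon4neg rested largely on Helicon4neg library 2. Without that library, and with no covariate, they were -0.011 at 30 mpk and -0.038 at 100 mpk. Helicon4neg against vehicle was then at -0.22. Smoothing out the relation to length within each library, gene by gene, moved the medians less: at 100 mpk against vehicle to -0.19 with the length in the file and to -0.15 with the median coding transcript. Blocking on the title code, the median at 100 mpk against vehicle turned to 0.20 and no member was called. No code holds both groups, so this estimate is linked through Helicon4neg and through Helicon4 30 mpk libraries 1 and 6. Each of these libraries is the only one of its group in its code, so the blocked value rests on single libraries.

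**Figure D2:**
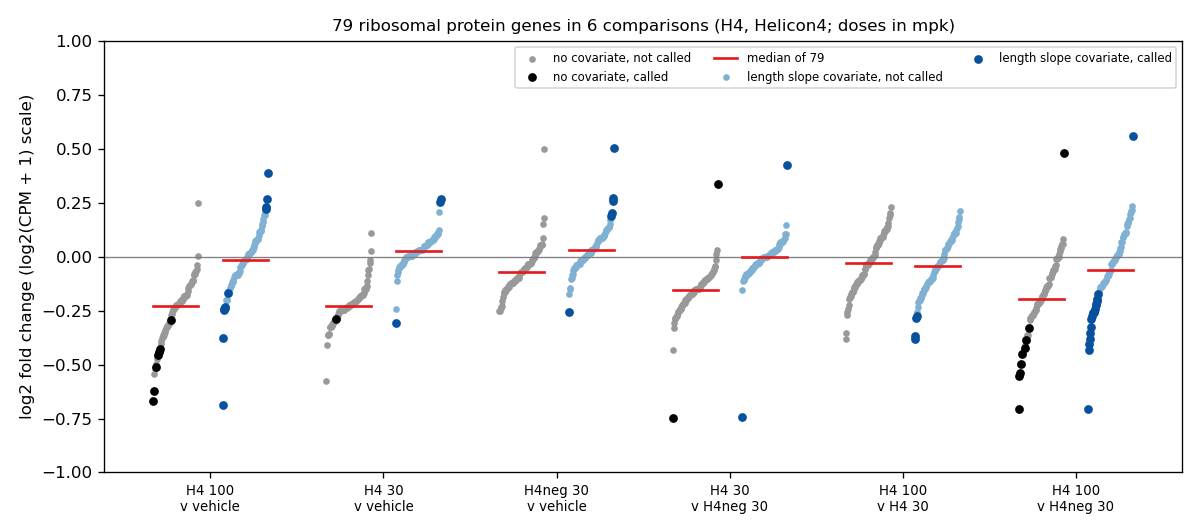
Log2 fold change of each of the 79 genes (points, sorted within each column) in 6 comparisons, without covariate (grey, called genes black) and with the length slope as covariate (light blue, called genes dark blue), with the median as a red line. The medians against vehicle at -0.23 move to within 0.03 of 0 with the covariate, and the genes called in both fits stay at the ends.

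With Helicon4 at 100 mpk against vehicle 7 members fell and none rose. Among the 7 were RPL17, RPL8 and RPL3 of the large subunit and RPS3 and RPS15 of the small subunit. This is 8.86% of members, below the 15.9% of all tested genes that fell, with 14.3% of all genes risen (limma, Benjamini-Hochberg adjusted over 13373 genes). In either direction 30.2% of all genes were called. Without the 2 libraries that stood apart 20 members fell and 1 rose (against 20.9% and 18.6% of all genes), and all 7 were among those called.

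RPL17, a protein at the rim of the exit tunnel, was at 8.66 to 13.7 CPM in vehicle (median 11.3) and at 7.33, 5.08, 6.17, 7.25 and 7.46 CPM in the libraries at 100 mpk. The groups did not overlap. The log2 fold change was -0.67 ± 0.10 (SE, adjusted p = 7.65e-06), and it was -0.69 with the length slope covariate (adjusted p = 3.11e-06). This gene barely followed the slope (r = -0.19) and has the shared exons named above. Its annotated span is chr18:49488453-49492523 on the - strand (GENCODE 29, GRCh38). RPL8, a core protein that contacts the same centre as RPL3, was at 2005 to 4690 CPM in vehicle (median 2890) and at 2604, 1596, 1596, 2049 and 2308 CPM at 100 mpk. The lowest vehicle library lay inside the 100 mpk range, and all other vehicle libraries were above all 5. The log2 fold change was -0.62 ± 0.18 (adjusted p = 0.00795), and -0.38 ± 0.10 with the covariate (adjusted p = 0.00261). RPS3, a protein of the mRNA entry site with roles in DNA repair, was at 2065 to 3690 CPM in vehicle (median 2431) and at 2397, 1792, 1719, 1839 and 2047 CPM at 100 mpk. Of the 5 libraries 4 were below every vehicle library. Its log2 fold change was -0.44 ± 0.14 (adjusted p = 0.0171), and -0.25 with the covariate (adjusted p = 0.0115).

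RPS15, a protein of the small subunit head, was at 686 to 1301 CPM in vehicle (median 991) and at 848, 651, 575, 675 and 710 CPM at 100 mpk, a log2 fold change of -0.51 ± 0.18 (adjusted p = 0.0294). The groups overlapped, and 100 mpk library 1 was the highest of its group. RPL3, a protein near the peptidyl transferase centre, was at 2765 to 4797 CPM in vehicle (median 3729) and at 3813, 2652, 2691, 2934 and 3209 CPM at 100 mpk (-0.30 ± 0.11, adjusted p = 0.0422). With the covariate RPL3 was at -0.17 and no longer called (adjusted p = 0.0791), whereas RPS15 was (-0.24, adjusted p = 0.0129). Calls of RPS15, RPL3 and RPS3 also rested on single libraries. Without 100 mpk library 2 or 3 the adjusted p was 0.067 or 0.098 for RPS15 and 0.131 or 0.135 for RPL3, and without library 3 it was 0.0609 for RPS3. RPS15 was also lost without 100 mpk library 4 (0.057) or vehicle library 8 (0.0517), and RPL3 without 100 mpk library 4 (0.0853) or 5 (0.0522) or vehicle library 2 (0.0558), 3 (0.0582), 4 (0.0754), 6 (0.0662) or 8 (0.0703). RPL17 and RPL8 stayed called without any single library.

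**Figure D3:**
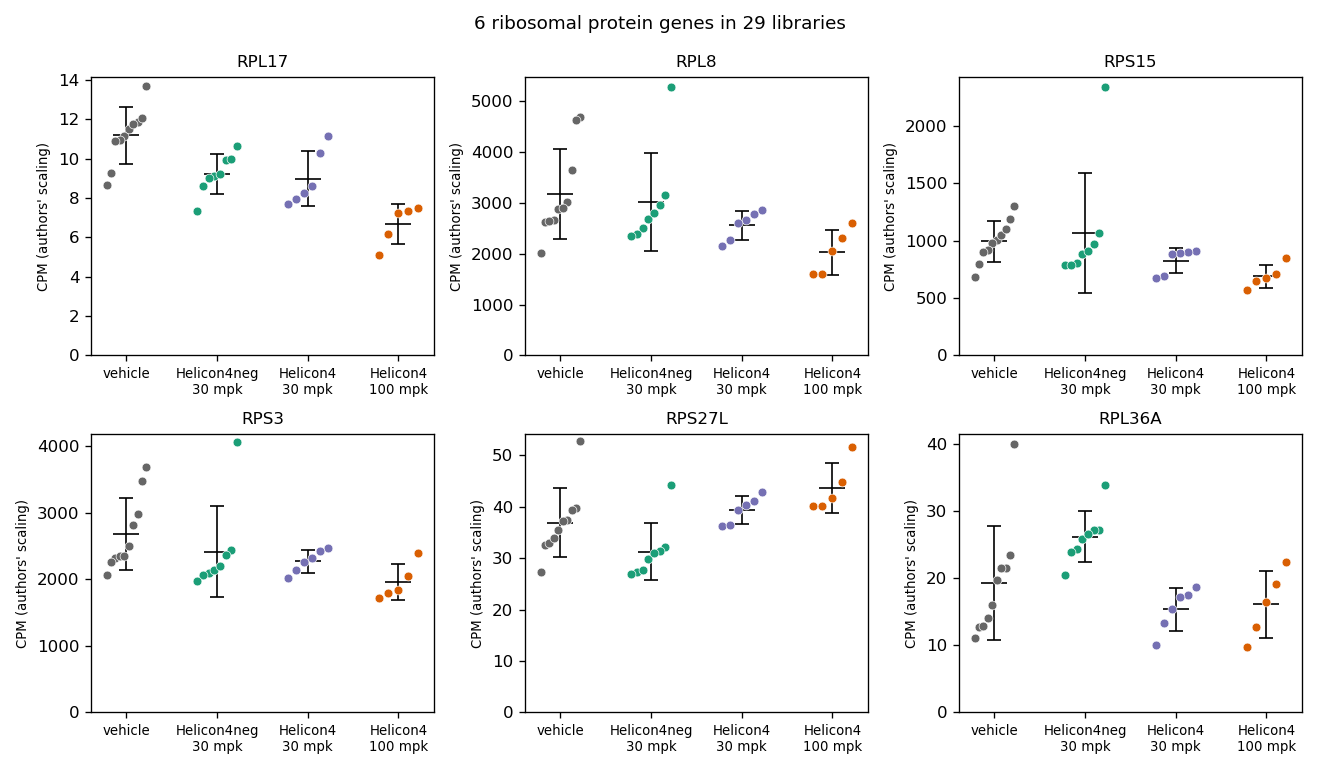
CPM of 6 ribosomal protein genes in each of 29 libraries by group, with bars for mean ± SD. RPL17 at 100 mpk (5.08 to 7.46 CPM) lies below all vehicle libraries (8.66 to 13.7 CPM), and RPL36A with Helicon4neg (20.6 to 33.8 CPM) lies above all libraries of Helicon4 at 30 mpk (10.1 to 18.7 CPM).

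The length slope covariate also brought out members at 100 mpk that the fit without it did not call. With it 4 rose and 7 fell (5.06% and 8.86%, against 18% and 20.3% of all genes). The 4 that rose were RPS27L (0.39 ± 0.07, adjusted p = 8.75e-05), RPS26 (0.23, adjusted p = 0.0218), RPL35A (0.22, adjusted p = 0.028) and RPS13 (0.27, adjusted p = 0.0445), and RPL13 fell (-0.17, adjusted p = 0.0445). Without the covariate RPS26 was at -0.11 and RPL35A at -0.039, so that the direction of both turned. With GC content of the transcript as a further slope 2 rose (RPS27L and RPS26) and 4 fell (RPL17, RPL8, RPS3 and RPS15), against 18.8% and 22.2% of all genes. The host markers given above, 6 of 11 of them lower and 2 higher, moved with this comparison too, and their part in it was not tested beyond the following fit. With the mean host marker level as a covariate RPL8 stood at -0.69 (adjusted p = 0.0829), RPS3 at -0.58 (0.065) and RPS15 at -0.63 (0.112), none of them called. These folds were larger in size than without it, and that of RPL17 was smaller. The mean host level (log2) was 3.68 to 4.05 in vehicle and 3.40 to 3.73 at 100 mpk. It thus nearly followed the groups, and this fit can hardly separate host level from treatment. RPL17 (-0.60, adjusted p = 0.0112) and RPL36A (-1.14, adjusted p = 0.00226) were called in that fit, in which 9.15% of all genes fell and 9.84% rose.

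With Helicon4 at 100 mpk against Helicon4neg at 30 mpk, where the doses differ, 8 members were lower and 1 was higher (10.1% and 1.27%, against 17.7% and 17% of all genes, 34.8% in either direction). Among the 8 were RPL36A (-0.71 ± 0.22, adjusted p = 0.0113), RPL8 (-0.55 ± 0.18, 0.0203), RPS15 (-0.54 ± 0.19, 0.0239), RPS2 (-0.50 ± 0.18, 0.0347), RPL17 (-0.42 ± 0.11, 0.00257) and RPL3 (-0.33 ± 0.12, 0.0255). This comparison shares its 100 mpk libraries with the previous one. Its 2 groups share no title code, so code and treatment cannot be told apart here either. Without the 2 libraries that stood apart 7 fell and 2 rose (against 21.4% and 20.4% of all genes), and 8 of the 9 calls were kept. With the length slope covariate 18 fell and 1 rose (22.8% and 1.27%, against 25.5% and 23.8%), and all 9 genes were among them. Leaving out 100 mpk library 2 or 3 ended the calls of RPL3, RPL8, RPS15 and RPS2 (adjusted p 0.0547 to 0.106), library 4 those of RPL3 (0.0541) and RPS2 (0.0647), and library 5 that of RPL36A (0.0564). RPS2 was also lost without Helicon4neg library 1 (0.0542) or 2 (0.0592).

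RPS27L (chr15:63125872-63158021, - strand, same annotation) was the only member that rose in any of the 6 comparisons without covariate. It was at 27.2 to 52.8 CPM in vehicle (median 36.3), at 26.97 to 44.2 CPM with Helicon4neg (median 30.4), at 36.2 to 42.9 CPM with Helicon4 at 30 mpk (median 39.9) and at 40.1, 51.6, 41.7, 44.8 and 40.2 CPM at 100 mpk. All Helicon4neg libraries but library 2 were below all Helicon4 libraries. Against Helicon4neg it rose by 0.48 ± 0.12 at 100 mpk (adjusted p = 0.0017) and by 0.34 ± 0.11 at 30 mpk (adjusted p = 0.0343), and with the length slope covariate by 0.56 (adjusted p = 3.13e-07) and 0.42 (adjusted p = 2.85e-05). In the covariate fit at 30 mpk against Helicon4neg 12.3% of all genes rose and 13.4% fell. Against vehicle RPS27L was at 0.25 ± 0.11 at 100 mpk (adjusted p = 0.0848) and at 0.11 at 30 mpk, neither called. The median with Helicon4neg (30.4 CPM) lay below that of vehicle (36.3 CPM), so part of the rise against Helicon4neg lies in the lower Helicon4neg level. With the covariate RPS27L was at 0.39 at 100 mpk and 0.25 at 30 mpk against vehicle (adjusted p = 0.00995 at 30 mpk), both called. The call at 30 mpk against Helicon4neg without covariate was lost without Helicon4 library 2 (adjusted p = 0.0633), 3 (0.079), 4 (0.054) or 5 (0.0668) or Helicon4neg library 3 (0.0631), 4 (0.0658) or 8 (0.0645). Its parent RPS27 was not called in any comparison (-0.20 ± 0.22 at 100 mpk against vehicle).

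RPL36A, a protein at the tRNA exit site of the large subunit, was at 11.1 to 39.96 CPM in vehicle (median 17.9), at 20.6 to 33.8 CPM with Helicon4neg (median 26.2), at 10.1 to 18.7 CPM with Helicon4 at 30 mpk (median 16.3) and at 16.5, 22.5, 19.1, 12.8 and 9.77 CPM at 100 mpk. All Helicon4neg libraries were above all libraries of Helicon4 at 30 mpk. At the matched dose of 30 mpk this was a log2 fold change of -0.75 ± 0.20 (adjusted p = 0.0114), and -0.74 with the length slope covariate (adjusted p = 0.00744). Against vehicle Helicon4neg was at 0.50 ± 0.18 (adjusted p = 0.104) and Helicon4 at 30 mpk at -0.25 ± 0.20 (adjusted p = 0.433), and vehicle library 1, at 39.96 CPM, was the highest of all libraries. RPL36A followed the other members least of all 79 and shares exons with a readthrough gene.

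In that comparison at the matched dose RPL36A fell and RPS27L rose, 1.27% of members each way, against 7.31% and 7.78% of all genes (15.1% in either direction). Of the other members 95% confidence intervals still allowed sizeable differences, for example -0.55 to 0.16 for RPL8 and -0.64 to 0.076 for RPS15. Helicon4 at 30 mpk against vehicle lowered RPL17 alone (1.27%, against 5.22% of all genes that fell and 5.86% that rose, 11.1% in all). RPL17 was at 7.67 to 11.1 CPM there (median 8.41), overlapping with vehicle, a log2 fold change of -0.29 ± 0.10 (adjusted p = 0.0478) that was lost without any of 21 libraries, with adjusted p up to 0.139. Without the 2 libraries that stood apart 2 members fell, against 8.5% of all genes that fell and 7.94% that rose. With the length slope covariate RPL17 fell (-0.31, adjusted p = 0.0267) and RPS27L and RPL3L (0.27, adjusted p = 0.0355) rose, against 8.79% and 8.05% of all genes. RPL26, which binds near the exit tunnel, had the lowest fold change at this dose (-0.58 ± 0.29, adjusted p = 0.208), and RPL35 (-0.41, 0.19) and RPL27A (-0.36, 0.248) were also among the lowest.

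No member was called for Helicon4neg against vehicle, where 2.62% of all genes fell and 2.21% rose (4.84% in all), or for Helicon4 at 100 against 30 mpk, where 1.86% fell and 1.74% rose (3.6% in all). At an unadjusted p under 0.05 the limma fit had 3 and 1 members in these comparisons. The share of all tested genes at that threshold is not given here, so nothing about the members is drawn from these counts. Edge values for Helicon4neg were 0.50 for RPL36A, 0.18 for RPL3L and -0.25 for RPL17 and RPS24. Without the 2 libraries that stood apart 3 members were lower with Helicon4neg than with vehicle (7.74% of all genes fell and 7.43% rose) and 1 was lower at 100 than at 30 mpk (4.32% and 3.55%). With the length slope covariate Helicon4neg raised RPLP2 (0.20, adjusted p = 0.00911), RPLP1 (0.19, 0.0217), RPL28 (0.26, 0.0303), RPL3L (0.27, 0.0165) and RPL36A (0.50, 0.0484) and lowered RPL17 (-0.26, 0.0356), against 8.83% and 8.99% of all genes; RPLP1 and RPLP2 form the acidic stalk that recruits translation factors. With the same covariate RPL8 (-0.37, adjusted p = 0.0164), RPL17 (-0.38, 0.018) and RPS15 (-0.27, 0.0233) were among 4 members lower at 100 than at 30 mpk, against 8.2% of all genes that fell and 6.9% that rose.

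Within the family the order of the fold changes went with the GC content of the transcripts. At 100 mpk against vehicle the Spearman rho between log2 fold change and GC share over 79 members was -0.57, against -0.41 over 12454 other tested genes, and at 30 mpk it was -0.015 against -0.13. It was -0.67 for 100 against 30 mpk (other genes -0.53), -0.67 for 100 mpk against Helicon4neg (-0.46), -0.44 for 30 mpk against Helicon4neg (-0.25) and 0.45 for Helicon4neg against vehicle (0.19), so that the other genes had the same sign in each comparison. Genes are not independent replicates, the comparisons share libraries, and these values are descriptions. RPS15 (62.2% GC), RPL36 (62.1%), RPL8 (61.8%) and RPS2 (61.4%) were on the GC-rich side, and RPS27L (42.4%), RPL39 (43.9%), RPS13 (45.6%) and RPL35A (43.7%), the members with the highest values at 100 mpk, on the other. RPL17 (44.8%) lay off this order. The GC slope of the libraries, computed like the length slope and jointly with it, had a mean of -0.13 per 10 percentage points of GC at 100 mpk and 0.013 in vehicle (p = 0.0639 by a two-sided exact permutation test, 0.192 after adjustment over 6 comparisons). The smallest p was that of 100 mpk against Helicon4neg, whose mean was 0.063 (p = 0.0241 by the same test, 0.145 after adjustment). The part of the GC slope in these calls was not tested further than by the fit with both slopes. When values were centred on the family median in each library, RPS27L was higher (0.50 ± 0.12, adjusted p = 0.00709) and RPL8 (-0.38, 0.0102), RPL36 (-0.30, 0.0394) and RPL35 (-0.25, 0.042) were lower at 100 mpk against vehicle, relative to the other members. On that scale 9.95% of all genes rose and 2.68% fell.

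**Figure D4:**
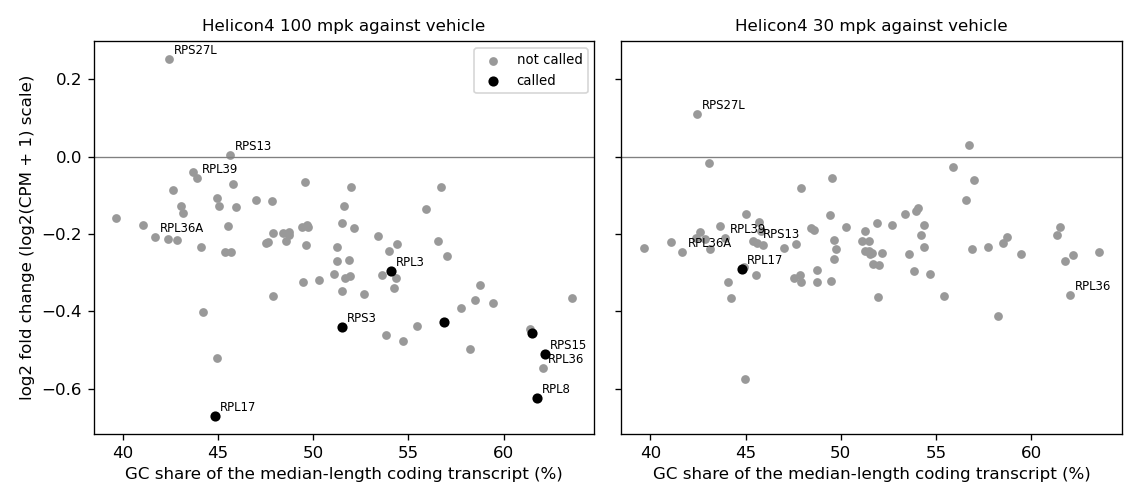
Log2 fold change of each of the 79 genes against the GC share of its median-length coding transcript, for Helicon4 at 100 mpk (left) and 30 mpk (right) against vehicle, with called genes in black. At 100 mpk GC-rich members tend to lie lower (rho = -0.57) and RPL17 lies apart at 44.8% GC. At 30 mpk there is no such order (rho = -0.015).

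Members followed for their roles outside the ribosome or as reference genes were not called in any comparison without covariate. RPL5 and RPL11, which bind MDM2 and stabilise p53 when ribosome assembly is disturbed, were at 2258 to 3477 and 1523 to 3362 CPM in vehicle and at 2282 to 2708 and 1307 to 1858 CPM at 100 mpk, with log2 fold changes of -0.13 ± 0.12 (adjusted p = 0.43) and -0.36 ± 0.16 (adjusted p = 0.0953). RPS6, the substrate of S6 kinase, was at -0.21 ± 0.16, RPSA, also known as the laminin receptor, at -0.23 ± 0.16, and RPS4X, the X-linked copy, at -0.22 ± 0.15. The stalk proteins RPLP0, RPLP1 and RPLP2 were at -0.36 ± 0.15, -0.39 ± 0.20 and -0.36 ± 0.21, and RPL22, which also regulates splicing, at -0.070 ± 0.14. RPL3L, at 4.18 CPM on average, was at -0.078 ± 0.16.

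Other lists of ribosome production and translation are set here beside all tested genes, of which 15.9% fell and 14.3% rose at 100 mpk against vehicle. Of 27 ribosome biogenesis genes 19 fell and none rose at 100 mpk against vehicle (median log2 fold change -0.40, all tested genes 0.0051), led by MYBBP1A (-0.63 ± 0.11, adjusted p = 7.44e-05), NCL (-0.44 ± 0.08, 7.92e-05), NOP14 (-0.44, 0.00018) and GNL3 (-0.34, 0.000245), nucleolar factors of rRNA transcription and subunit assembly. With the length slope covariate 22 of 27 fell (median -0.30), and with length and GC slopes 22 (median -0.29), against 20.3% and 22.2% of all genes. At 30 mpk 4 of 27 fell (GNL3, NCL, NOP56 and RRP9; median -0.19), against 5.22% of all genes. With Helicon4 against Helicon4neg at 30 mpk 10 fell, against 7.31%. A difference between this list and the ribosomal protein genes was not tested. Of 6 ribosomal protein genes outside the naming rule (among them FAU, RPL22L1 and RPL26L1) none was called at 100 mpk (median -0.19). Of 21 other TOP and translation genes EEF1D, an elongation factor subunit (-0.42 ± 0.091, adjusted p = 0.000652), and NPM1, a nucleolar chaperone (-0.28 ± 0.10, 0.0368), fell and none rose, a smaller share than that of all genes. Among 10 regulators of TOP mRNA translation EIF4EBP1 fell (-0.69 ± 0.21, adjusted p = 0.0113) and EIF4EBP2 rose (0.34 ± 0.09, 0.00465), both repressors of cap-dependent initiation that mTOR inactivates. Of 6 dedicated ribosomal protein chaperones GRWD1, which carries RPL3, fell (-0.43 ± 0.12, adjusted p = 0.00973).

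Of 77 mitochondrial ribosomal protein genes 11 fell and none rose at 100 mpk against vehicle (median -0.21; MRPL4, MRPS2, MRPS26 and MRPL58 with the smallest adjusted p, 0.00486 to 0.00983), close to the 15.9% of all genes that fell. With the length slope covariate 12 fell and 6 rose (median -0.025), against 20.3% and 18% of all genes. Of 73 nuclear oxidative phosphorylation genes 4 fell and none rose, fewer than the background gives (NDUFS7, NDUFS8, NDUFV1 and ATP5D; median -0.11), while with the covariate 23 rose and 4 fell (median 0.13), with NDUFA4 the first of the risen (0.57 ± 0.07, adjusted p = 3.13e-07). At 30 mpk against vehicle 6 of 77 and 0 of 73 fell and none rose, against 5.22% of all genes that fell and 5.86% that rose.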

How the data were processed

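PolyA RNA-seq libraries of 29 COLO320DM xenograft tumors were used, grouped by the labelled treatment. Per the submitters' processing notes the authors trimmed reads with Trimmomatic 0.39, and the tools listed further are STAR 2.7.7a, the Subread 2.4.2 counter featureCounts, and edgeR 4.0.2, with genome GRCh38; counting options are not given in the sources used here. The deposited values are a signal: read counts divided by a scaled library size. A search over the size of 1 read made 100% of values whole within 0.05 reads; in 18 of 29 columns a simpler test from the lowest values could not show this, so depths, read floors and count tests rest on the search there. It gave 26.8 to 61.6 M reads per library.

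Values were taken as log2(CPM + 1), so fold changes of low genes are understated. The test covered the 13373 of 13492 genes that reached 1 CPM in 5 or more libraries, by limma 3.58.1 (R 4.3.3, trend and robust), all 4 groups in a single fit, with Benjamini-Hochberg adjustment over all genes and a threshold of 0.05, called two-sided. The length slope was computed from genes that are not members and added as a covariate. Library measures were compared by exact permutation tests. Host marker level, title code, replicate number, library weights, edgeR 4.0.16 and DESeq2 1.42.0 on recovered reads, other scalings and filters, and leaving out libraries were tried. The fit was tested on simulated data.

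The members and gene lists were chosen with earlier results of these data known. Members were named by level per kb, as paralogues with their parents, as a preset list, by the 5 largest rises and falls per comparison, by calls with and without the slope covariate, and by calls after centring; of other lists up to 4 genes by adjusted p per comparison. Fits with length and GC slopes, values corrected by transcript length, and the slope covariate without the libraries that stood apart were added after seeing the data. Start windows came from RefSeq (GRCh38.p14). Some members are counted in the totals but not reported here by name.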

Additional observations from a re-analysis of the deposited data

Results flagged for a closer look

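Dixon's test at 95% was applied to 16 measures in the groups of 4 to 10 libraries, 64 tests in all, of which chance flags about 1 in 20, and 16 values lay far from their group. Of these, 14 came from Helicon4neg library 2. Its ribosomal protein share was 20.4% (next 13.02%) and its length slope -0.32 (next -0.045). Its CPM was the highest of the group for RPL11 (2836), RPL3 (4962), RPL3L (9.96), RPL5 (4082), RPL8 (5288) and RPLP0 (5178) among large subunit genes. The same held for RPS15 (2336), RPS2 (8777), RPS27 (3959, next 1551), RPS27L (44.2), RPS3 (4066) and RPS6 (5336). Vehicle library 1 was far above its group in RPL36A (39.96 CPM, next 23.5), and vehicle library 6 in RPS27L (52.8 CPM, next 39.8).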

How the results depend on the processing

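Of 19 calls of a member in a comparison, 18 were kept with the length slope covariate, 13 with length and GC slopes, 18 without the libraries that stood apart, 18 by edgeR and 19 by DESeq2, but 3 when host markers entered as a covariate and 0 when blocked on title code; where counts moved, the cause was not tested. For 100 mpk against vehicle (7 called) the count was 4 after centring, 12 with only the 2 groups, 0 with the title code, 11 with the slope covariate, 2 with host markers, 32 with library weights, 2 at a minimum of 1.5-fold, 17 with values corrected by coding transcript length, 21 without the libraries that stood apart and 11 by DESeq2. The share of all tested genes that fell and rose moved too. It was 15.9% and 14.3% without covariate and 20.3% and 18% with the slope covariate. Without the libraries that stood apart it was 20.9% and 18.6%, with host markers 9.15% and 9.84%, and after centring 2.68% and 9.95%. For the other settings, and for most counts below, that share is not given here, so those counts alone say nothing particular to the members. The title code also moved the median fold change of members at 100 mpk against vehicle to 0.198 and turned RPL3 (0.115) and RPS15 (0.143), among others, while RPL36A stayed at -0.90 and -0.74 at 30 and 100 mpk against Helicon4neg and RPL17 at -0.42 at 100 mpk against Helicon4neg. All of these blocked values rest on single libraries that link the codes. The slope covariate turned RPL35A (0.220, by transcript length 0.218) and RPS26 (0.231, by transcript length 0.232, with GC 0.235), and RPS26 against Helicon4neg without the libraries that stood apart (0.152).

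For 30 mpk against vehicle (1 called) it was 0 with a pseudocount of 0.1, at least 5 CPM, plain CPM, centring, only the 2 groups, the title code, length-corrected values, 1.5-fold or edgeR, 3 with either slope covariate, 4 with host markers, and 2 with length and GC slopes, without the libraries that stood apart (also with the slope) or by DESeq2. For Helicon4neg against vehicle (0) it was 6 with either slope covariate, 1 with host markers, 9 with weights, 5 with length and GC slopes, 3 without the libraries that stood apart and 1 with the slope added. For 30 mpk against Helicon4neg (2) it was 1 after centring, with length-corrected values, host markers or 1.5-fold and 0 with the title code. For 100 against 30 mpk (0) it was 1 without trend, 4 and 3 with the slope covariates, 15 with weights, 1 without the libraries that stood apart, 5 with the slope added and 1 by DESeq2. For 100 mpk against Helicon4neg (9) it was 5 with only the 2 groups, 0 with the title code, 19 with either slope covariate, 2 with host markers, 20 with weights, 1 at 1.5-fold, 20 with values corrected by coding transcript length, 26 with the slope without the libraries that stood apart and 14 by DESeq2.

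Leaving out 1 library gave 2 (without 100 mpk library 3) to 29 (without Helicon4neg library 2, which enters only through the shared spread), 0 to 3, 0 to 12 (without Helicon4neg library 2), 1 to 2, 0 to 1 and 3 to 12 called members, in the order 100 mpk, 30 mpk and Helicon4neg against vehicle, 30 mpk against Helicon4neg, 100 against 30 mpk and 100 mpk against Helicon4neg. Replicate numbers did not pair the libraries (35 pairs, correlations -0.70 to 0.52, 15 above 0.1, and 0 of 27 libraries closest to their own number); with the replicate number as a block the counts were 6, 0, 0, 1, 0 and 5. The lowest member value rested on 112 reads; what else limits the calls was not tested.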
